A study of Homo sapiens with 6 samples.

Results

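The genes described here encode voltage-gated and related ion channels: the pore-forming and auxiliary subunits of potassium channels (symbols beginning KCN), sodium channels (SCN), calcium channels (CACNA, CACNB and CACNG) and the hyperpolarisation-activated cyclic nucleotide-gated channels (HCN). They were chosen by symbol, which gave 139 of the 19610 gene rows of an RNA sequencing count table. The libraries came from SH-SY5Y, an established human neuroblastoma line of sympathetic neuronal type, with a wild-type genotype in every library. SGC707, a small molecule that inhibits PRMT3, an arginine methyltransferase of ribosomal and other proteins, had been given to the cells of 3 libraries, and its solvent DMSO to those of the remaining 3. Libraries are lettered A to C within each treatment. The labels state neither dose nor duration, nor whether the letters stand for separate cultures, so the p-values reflect only the differences among these libraries, which could be technical.

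Voltage-gated channels open or close in response to the potential across the membrane. Sodium channels carry the upstroke of the action potential, potassium channels repolarise the membrane and hold it at rest, and calcium channels couple electrical activity to secretion and transcription. Each pore subunit works with auxiliary subunits that set its delivery to the membrane and its gating. Sympathetic neurons are the classical preparation for the M-current, a slow potassium current carried by KCNQ subunits, and neuroblastoma cells are known for the hERG current carried by KCNH2.

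Of the 139 genes, 54 had a mean of 20 or more counts over the 6 libraries, 51 had fewer and are treated as low, and 34 had no count in any library. With 0 counts observed, up to 3 remain possible, which is 0.181 to 0.234 normalised CPM (the count relative to the library size scaled by the TMM factor, the scaling edgeR uses) in SGC707 libraries and 0.270 to 0.293 in DMSO libraries, by counting error alone. The 34 genes with no count include CACNA1A and CACNA1H, which encode the P/Q-type and a T-type calcium channel pore, the skeletal muscle gene SCN4A, the sensory neuron gene SCN10A, and KCNA1 and KCNA4 among the Kv1 genes. Of the genes with low counts, 6 passed the filter of the test: KCNJ14 with a mean of 19.0 counts, SCN11A with 18.5, KCNC4 with 15.8, SCN7A with 13.7, KCNH7 with 13.0 and SCN1A with 9.17. KCNJ14 lay just under the limit of 20 and HCN4, with a mean of 20.3, just over it.

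Total counts were 11658728 to 12127187 in SGC707 libraries and 11863696 to 15437602 in DMSO libraries. Mitochondrially encoded genes took 24.3%, 25.3% and 37.7% of them in SGC707 A, B and C, against 53.3%, 60.7% and 46.7% in DMSO A, B and C, so that counts on nuclear genes were 7559322 to 8999358 with SGC707 and 6066305 to 6327895 with DMSO. Of 13 markers of adrenergic neuroblastoma identity, 12 had a mean of 20 or more counts, DBH among them, while TH, tyrosine hydroxylase, had 0 counts in every library. Their summed level was 4408 to 5301 normalised CPM with SGC707 and 5665 to 7065 with DMSO. Of 4 epithelial markers none reached that mean. The 6 mesenchymal markers summed to 158 to 177 normalised CPM with SGC707 and 151 to 195 with DMSO. Most of this was VIM, at 143 to 162 with SGC707 and 129 to 175 with DMSO. FN1 (log2 fold change -0.490, edgeR adjusted p = 0.345) was lower in every SGC707 library than in every DMSO library. The same held for COL1A1 (-0.998, edgeR adjusted p = 0.317) and WWTR1, both with means under 20 counts. The groups of VIM, PRRX1 and YAP1 overlapped. The 5 Schwann-like markers summed to 46.5 to 62.3 and 13.8 to 70.1 normalised CPM, with SOX10 at 0 counts; nearly all of this was PMP22, with 742, 776 and 788 counts in SGC707 A, B and C, against 130, 113 and 761 in DMSO A, B and C. SGC707 C stood apart from its group. Its chi-square per degree of freedom was 109 to SGC707 A and 84.3 to SGC707 B, against 12.4 between those libraries. These values cover all tested genes, mitochondrially encoded ones included. Levels in SGC707 C fell as transcript GC content rose (Spearman correlation -0.763, against the mean of the other 5 libraries). The same correlation was 0.524 in SGC707 A, 0.338 in SGC707 B and -0.132 to 0.225 in DMSO libraries. For these, SGC707 C is part of the mean compared with. DMSO C was nearer to SGC707 C (46.7) than to DMSO B (62.2), though nearest to DMSO A (24.9). Between DMSO A and DMSO B the value was 25.6.

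The members differed in level by several orders of magnitude, and some of the auxiliary calcium channel subunits were among the highest. Levels are given as normalised CPM per kilobase of the longest annotated transcript, as the mean over the 6 libraries. CACNG4, a transmembrane regulator of AMPA receptors that is also classed as a calcium channel gamma subunit, stood highest at 70.0 ± 11.7 (SD, n = 6). CACNA2D2, the alpha2delta-2 subunit that promotes surface delivery of high-voltage-activated calcium channels, followed at 43.6, and KCNH2, the hERG potassium channel, at 30.9. CACNG7 stood at 19.7, CACNA2D1, the alpha2delta-1 subunit bound by gabapentin, at 13.6, and the sodium channel beta3 subunit SCN3B at 8.85. By raw counts, CACNG4 and CACNA2D2 together held 31.5% of all counts on the 139 genes, and the 5 genes with the most counts held 52.8%.

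Sodium and calcium channel pores were lower than these auxiliary subunits. Other auxiliary calcium channel subunits were not all higher than the pores. CACNB3 stood at 6.46 normalised CPM per kilobase, CACNB1 at 4.90, CACNG8 at 2.68, CACNB4 at 1.05 and CACNB2 at 0.895. Among sodium channel pores SCN2A, SCN9A and SCN3A stood at 4.35, 3.92 and 3.62 normalised CPM per kilobase, levels that lie within the spread of the 6 libraries of one another, and SCN8A at 1.73. Among calcium channel pores the N-type gene CACNA1B stood at 2.60, the L-type gene CACNA1C at 1.15, the T-type gene CACNA1G at 0.599 and the L-type gene CACNA1D at 0.189. The sodium-activated potassium channels KCNT1 and KCNT2 stood at 5.16 and 4.83 and the leak channel KCNK3 at 4.18. Of the HCN genes HCN3 stood at 6.41, HCN2 at 3.73 and HCN4 at 0.221.

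**Figure D1:**
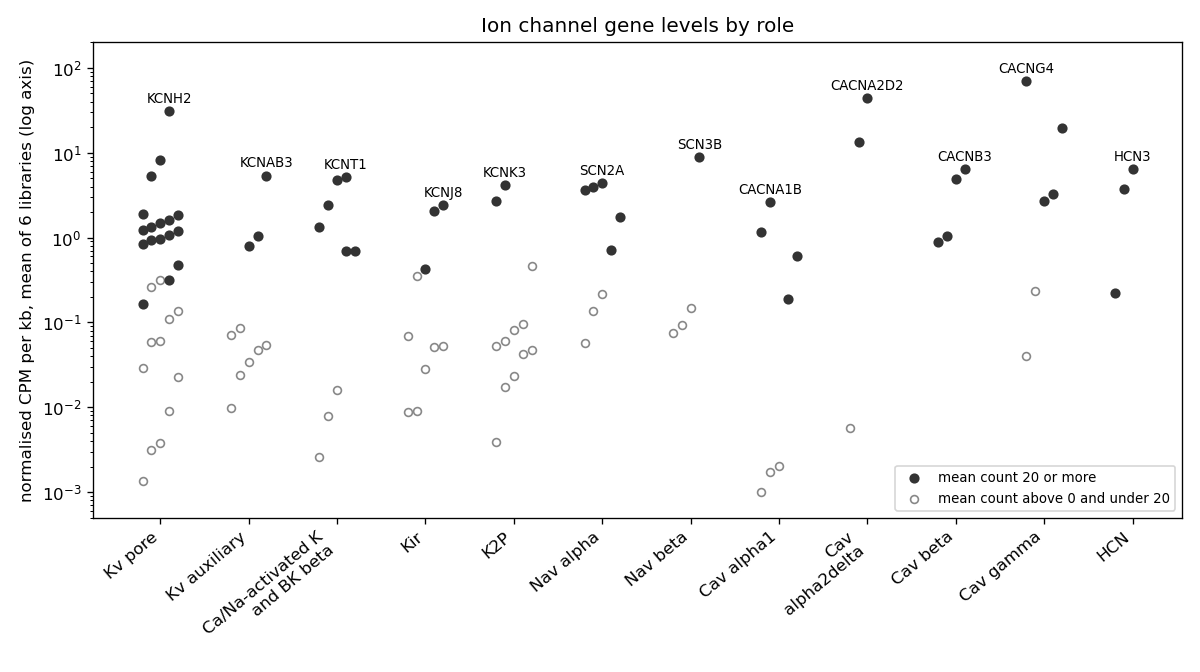
Level of the 105 channel genes with at least 1 count, by the role of the subunit, as normalised CPM per kilobase of the longest transcript on a log axis (mean of 6 libraries). Filled points have a mean of 20 or more counts, open points have fewer, and the highest gene of each role is named; CACNG4, CACNA2D2 and KCNH2 stand at 70.0, 43.6 and 30.9.

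No channel gene passed the test between SGC707 and DMSO. In these bulk libraries fewer cells expressing a gene and less of its RNA per cell cannot be told apart. With edgeR over 12196 tested genes, 0 of the 60 tested members had an adjusted p under 0.05 (lowest 0.181), where 0.0246% of all tested genes did. At an unadjusted p under 0.05 there were 10 members, 3 with positive and 7 with negative log2 fold changes. These are 5% and 11.7% of the tested members, beside 5.62% of all tested genes in the positive and 7.13% in the negative direction. SGC707 and DMSO libraries did not overlap in 12 members, or 20%, beside 20.6% of all tested genes. By direction, SGC707 lay above DMSO in 3 members (5%, beside 10.8% of all tested genes) and below it in 9 (15%, beside 9.78%). The 3 members above were the low genes KCNC4, KCNJ14 and SCN7A, whose counts were 14 to 35 in SGC707 libraries and 3 to 11 in DMSO libraries, so that they met the filter mainly through the SGC707 group. Among the 54 members with a mean of 20 or more counts, SGC707 lay above DMSO in 0 (beside 11% of all genes with that mean) and below it in 8 (beside 10%), and at an unadjusted p under 0.05 there were 1 positive (beside 5.81%) and 7 negative (beside 7.29%). Negative log2 fold changes were found for 38 of the 60 (63.3%, beside 47.2%), with a median of -0.13 against 0.02 over all tested genes. The median was -0.25 without DMSO C, and without that library SGC707 lay below DMSO in 21 of 63 members (33.3%, beside 17.9%). Without SGC707 C the share of members below was 19%, less than the 24.2% of all tested genes. With any other library left out it was 15.9% to 21.3%, beside 11.7% to 13.8%. With scaling by library totals alone the median of all genes moved to 0.69 and that of the channel genes to 0.54, with 6 members negative, and 5 members passed in the positive direction (8.33%, beside 21.1%). Channel transcripts took 2634, 2513 and 1959 CPM of the nuclear total in SGC707 A, B and C, against 2963, 2946 and 2546 in DMSO A, B and C; these groups overlap.

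**Figure D2:**
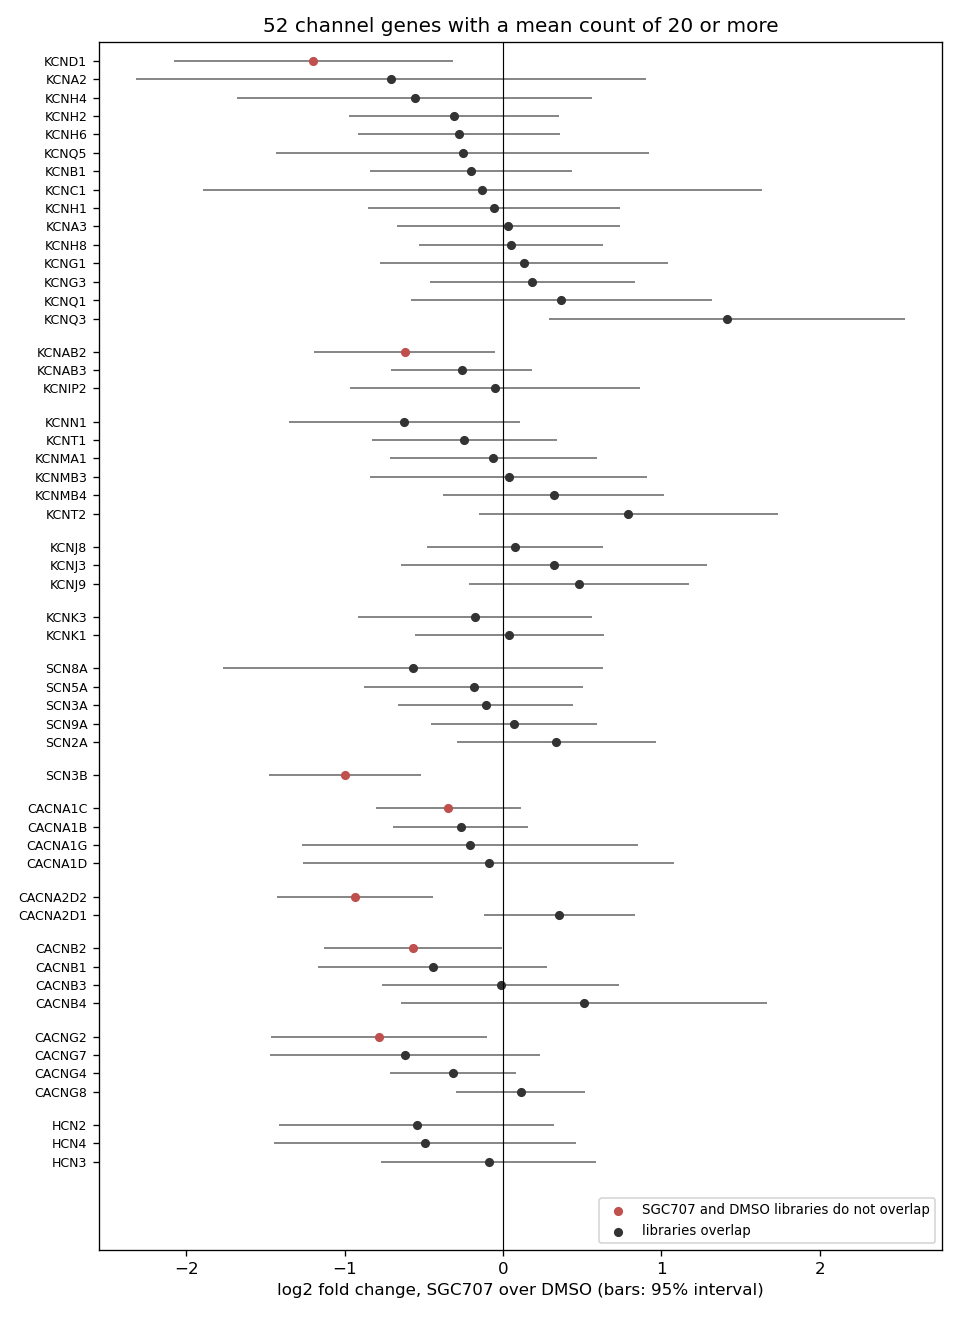
Log2 fold change of SGC707 over DMSO with its 95% interval (edgeR) for 52 of the 54 channel genes with a mean of 20 or more counts, grouped by role and ordered within each role. Red points mark the 7 of these genes whose SGC707 and DMSO libraries do not overlap, all of them on the negative side; no gene passed the adjusted threshold.

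The gene with the smallest p was SCN3B (GRCh38 chromosome 11, 123629187 to 123655244), which encodes the auxiliary beta3 subunit of sodium channels. It is the only one of the 4 beta subunit genes here with a mean of 20 or more counts. It had 30.9, 35.2 and 41.2 normalised CPM in SGC707 A, B and C, against 80.4, 79.6 and 54.5 in DMSO A, B and C. Every SGC707 library lay below every DMSO library, with DMSO C the nearest. The means were 35.8 ± 5.20 with SGC707 and 71.5 ± 14.7 with DMSO (SD, n = 3), or -0.999 on the log2 scale (SE 0.20, 95% interval -1.47 to -0.53, edgeR adjusted p = 0.181). Without SGC707 C the edgeR adjusted p was 0.0278 (log2 fold change -1.12), and DESeq2 on all libraries gave an adjusted p of 0.00335. The edgeR value was 0.102 without DMSO C (log2 fold change -1.16) and at most 0.704 with 1 library left out, the value without DMSO B. In that fit 0 of all 12425 tested genes had an adjusted p under 0.05. The log2 fold change of SCN3B ran from -1.16 to -0.90 with 1 library left out. Of the other beta subunit genes, SCN4B had a mean of 8.33 counts and SCN2B one of 5.67.

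CACNA2D2 (chromosome 3, 50362799 to 50504244) came second. It had 188, 173 and 132 normalised CPM in SGC707 A, B and C, against 335, 369 and 237 in DMSO A, B and C. All SGC707 values were under the lowest DMSO value, again that of DMSO C. The means were 164 ± 28.7 with SGC707 and 314 ± 68.5 with DMSO (SD, n = 3), or -0.93 on the log2 scale (SE 0.21, 95% interval -1.42 to -0.45, edgeR adjusted p = 0.202). The edgeR adjusted p was 0.0495 without SGC707 C, 0.0553 after a correction for GC content and length, and 0.00672 in DESeq2. It was 0.121 without DMSO C (edgeR, log2 fold change -1.10) and 0.752 without DMSO B, a fit in which 0 of all 12425 tested genes passed. The log2 fold change of CACNA2D2 ran from -1.10 to -0.80 with 1 library left out. Exons of the gene named CYB561D2 on the opposite strand overlap 9.59% of its exon bases, and whether counting used strand is not stated in the sources used here.

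KCND1 had the most negative log2 fold change of the 60 tested members. KCND1 (chromosome X, 48961378 to 48971569), which encodes the A-type channel Kv4.1, had 4.53, 4.40 and 1.64 normalised CPM in SGC707 A, B and C, against 8.97, 8.02 and 7.47 in DMSO A, B and C. SGC707 values were all well under the DMSO values, with SGC707 C the lowest, and the log2 fold change was -1.20 (SE 0.38, edgeR adjusted p = 0.287). Without SGC707 C it was -0.87 with an edgeR adjusted p of 0.0404. In that fit without SGC707 C, 4 of 63 members passed: KCNQ3 in the positive direction (1 of 63, beside 3.73% of all tested genes) and SCN3B, CACNA2D2 and KCND1 in the negative (3 of 63, beside 5.53%). DESeq2 on all 6 libraries called 3 of 105 members lower, SCN3B and CACNA2D2 among them, beside 1.58% of the genes it tested. Both shares count every gene with a p-value. Some members with lower counts, KCNAB2 and CACNB2 among them, got no adjusted p from DESeq2 and could not be called.

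Promoters are shown for CACNA2D2, KCND1 and CACNA1C, some of the calcium and potassium channel genes whose SGC707 libraries all lay below the DMSO libraries. CACNA2D2 is given with both of its annotated starts, and the runs were chosen to show few and many GC boxes. Each run is 250 bases before to 50 after a RefSeq start on GRCh38.p14, 5′ to 3′ on the gene's strand, and capitals mark the GC box, GGGCGG on either strand.
CACNA2D2 upstream start, chr3:50504195-50504494, minus strand: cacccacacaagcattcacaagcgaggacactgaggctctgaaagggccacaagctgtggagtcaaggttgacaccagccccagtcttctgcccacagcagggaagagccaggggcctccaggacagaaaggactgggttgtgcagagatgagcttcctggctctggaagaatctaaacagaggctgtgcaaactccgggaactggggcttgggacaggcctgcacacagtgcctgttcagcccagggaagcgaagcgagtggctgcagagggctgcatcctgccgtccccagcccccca
CACNA2D2 downstream start, chr3:50503585-50503884, minus strand: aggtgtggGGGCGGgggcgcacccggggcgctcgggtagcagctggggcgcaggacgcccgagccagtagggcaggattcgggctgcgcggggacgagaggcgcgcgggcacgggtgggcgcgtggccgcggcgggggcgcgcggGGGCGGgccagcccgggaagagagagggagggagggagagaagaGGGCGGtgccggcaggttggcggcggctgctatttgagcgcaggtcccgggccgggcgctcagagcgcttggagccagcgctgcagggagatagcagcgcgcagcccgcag
KCND1, chrX:48971795-48972094, minus strand: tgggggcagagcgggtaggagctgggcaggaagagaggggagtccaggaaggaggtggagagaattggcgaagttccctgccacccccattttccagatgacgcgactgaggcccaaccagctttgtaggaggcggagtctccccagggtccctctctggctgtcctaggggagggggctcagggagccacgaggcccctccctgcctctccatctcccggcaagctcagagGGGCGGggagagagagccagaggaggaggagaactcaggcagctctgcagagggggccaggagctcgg
CACNA1C, chr12:2052737-2053036, plus strand: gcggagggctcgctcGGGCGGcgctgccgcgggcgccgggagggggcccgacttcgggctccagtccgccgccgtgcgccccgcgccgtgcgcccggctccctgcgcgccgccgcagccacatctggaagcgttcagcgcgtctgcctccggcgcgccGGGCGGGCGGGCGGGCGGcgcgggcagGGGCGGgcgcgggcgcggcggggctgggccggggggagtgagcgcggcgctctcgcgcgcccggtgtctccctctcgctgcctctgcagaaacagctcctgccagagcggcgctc
The 4 runs hold 0, 3, 1 and 6 GC boxes, counting overlapping matches, and their GC contents are 60.3%, 77.3%, 65.7% and 82.3%. They do not stand for the other lower genes: no annotated start of KCNAB2 or CACNB2, whose SGC707 libraries also lay below, held a GC box. A GC box was found in 53.3% of the 152 annotated starts of 100 channel genes, in 60.9% of the 64 starts of the 37 members with a mean of 20 or more counts, and in 45% of all 35116 promoters of the same length. The median GC content of the promoters was 64.2% for the channel genes, 70.5% for those with a mean of 20 or more counts and 58.7% for all. Promoters of the silencer REST's targets often hold a longer element, and its left half-site, TTCAGCACC on either strand, was in 3 of the 152 channel starts (1.97%, beside 0.376% of all promoters) and in 0 of the 4 runs above. Its right half-site, GGACAGC on either strand, was in 13 of the 152 (8.55%, beside 6.03% of all promoters) and once in the 4 runs, in that of KCND1. These matches describe letters in a window and not binding.

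Among Kv pore subunits, KCNQ3 was the member with the largest positive log2 fold change. It encodes an M-channel subunit and lies on chromosome 8, 132120858 to 132481019. KCNQ3 had 18.1, 22.4 and 6.86 normalised CPM in SGC707 A, B and C, against 7.44, 3.13 and 7.20 in DMSO A, B and C. SGC707 A and B were high while SGC707 C lay inside the DMSO range, so the groups overlap. The log2 fold change was 1.41 (SE 0.48, 95% interval 0.29 to 2.53, edgeR adjusted p = 0.305), and without SGC707 C it was 1.76 (edgeR adjusted p = 0.0346).

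Of its relatives, KCNQ5 had a log2 fold change of -0.25 and KCNQ1, the cardiac and epithelial member of the family, one of 0.37, with edgeR adjusted p of 0.872 and 0.737.

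KCNH2 and KCNC1 had groups that overlapped. KCNH2 had 142, 147 and 66.1 normalised CPM in SGC707 A, B and C, against 155, 150 and 135 in DMSO A, B and C. SGC707 A and B lay inside the DMSO range and SGC707 C at less than all others; the log2 fold change was -0.31 (95% interval -0.97 to 0.35, edgeR adjusted p = 0.681), and -0.03 without SGC707 C. KCNC1, a fast-repolarising Kv3 gene, had 20.8, 14.3 and 2.03 normalised CPM in SGC707 A, B and C, against 20.9, 15.3 and 4.77 in DMSO A, B and C. Replicate C was low in both groups, and its log2 fold change was -0.13 with an SE of 0.76 (edgeR adjusted p = 0.960; 0.37 without SGC707 C). Of the 19 tested Kv pore genes 7 had positive and 12 negative log2 fold changes (median -0.20). The low gene KCNC4 had 1.09 to 1.93 normalised CPM with SGC707 and 0.489 to 0.900 with DMSO (log2 fold change 1.11, edgeR adjusted p = 0.344), and KCNH7, an ether-a-go-go-related gene, 0.692 to 0.857 and 1.14 to 1.47 (-0.79, edgeR adjusted p = 0.421); both passed the filter with means under 20 counts.

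All 3 tested Kv auxiliary genes had negative log2 fold changes. KCNAB2, a cytoplasmic beta subunit with an aldo-keto reductase fold, had 3.08, 3.40 and 4.13 normalised CPM in SGC707 A, B and C, against 5.53, 5.18 and 5.58 in DMSO A, B and C. Groups did not overlap, with a difference of -0.62 on the log2 scale (SE 0.25; edgeR adjusted p = 0.356). KCNAB3, a related subunit, had 12.3, 12.6 and 11.1 with SGC707 and 14.6, 16.0 and 12.5 with DMSO (log2 fold change -0.26, edgeR adjusted p = 0.597), and KCNIP2, a calcium-binding partner of Kv4 channels, averaged 1.95 ± 0.215 normalised CPM with SGC707 and 2.02 ± 0.904 with DMSO (SD, n = 3; -0.05, edgeR adjusted p = 0.970).

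Calcium- and sodium-activated potassium channels had log2 fold changes in both directions, none of which passed. KCNT2, a sodium-activated channel, had 24.9, 31.1 and 52.1 normalised CPM in SGC707 A, B and C, against 14.2, 14.5 and 33.6 in DMSO A, B and C. Replicate C was the highest library of each group, and DMSO C exceeded SGC707 A and B; the log2 fold change was 0.79 (SE 0.41, edgeR adjusted p = 0.467), 0.42 without SGC707 C and 1.32 without DMSO C. KCNT1 had 40.8, 35.7 and 23.5 with SGC707 and 45.9, 42.1 and 30.5 with DMSO (log2 fold change -0.24, edgeR adjusted p = 0.716; -0.05 without SGC707 C and -0.10 after a correction for GC content and length). KCNN1, the SK1 channel, stood at 6.92 ± 1.74 and 10.7 ± 3.26 normalised CPM (SD, n = 3; -0.62, edgeR adjusted p = 0.459). The BK pore gene KCNMA1 stood at 8.28 ± 2.08 and 8.63 ± 1.85 (-0.06, edgeR adjusted p = 0.950), and its beta subunit gene KCNMB4 had a log2 fold change of 0.32. KCNMB3 shares 37.9% of its exon bases with PIK3CA on the opposite strand, so its value (0.04) is uncertain.

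Of 16 inward rectifier genes, 3 had a mean of 20 or more counts. KCNJ9, a subunit of G protein-gated channels, stood at 9.86 ± 2.53 normalised CPM with SGC707 and 7.07 ± 1.89 with DMSO (SD, n = 3; log2 fold change 0.48, edgeR adjusted p = 0.535), KCNJ8, the pore of an ATP-sensitive channel, at 5.94 ± 1.07 and 5.65 ± 0.262 (0.07), and KCNJ3 at 2.40 ± 0.967 and 1.90 ± 0.561 (0.32). KCNJ14, under the count limit, had 1.33, 2.20 and 2.34 normalised CPM in SGC707 A, B and C, against 0.954, 0.978 and 0.630 in DMSO A, B and C. Its SGC707 libraries all lay above its DMSO libraries (log2 fold change 1.19, SE 0.40, edgeR adjusted p = 0.305), and GRWD1 on the same strand overlaps 8.06% of its exon bases. Of the leak channels, KCNK3 had 32.6, 27.0 and 12.9 normalised CPM with SGC707 and 28.6, 28.8 and 24.6 with DMSO (-0.17, edgeR adjusted p = 0.860; 0.12 without SGC707 C) and KCNK1 a log2 fold change of 0.04 (95% interval -0.55 to 0.63).

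Sodium channel pores showed no shift that passed. SCN2A had 35.7, 41.3 and 52.4 normalised CPM in SGC707 A, B and C, against 26.9, 48.0 and 27.5 in DMSO A, B and C (log2 fold change 0.34, edgeR adjusted p = 0.632). SCN9A stood at 39.3 ± 8.84 and 37.4 ± 7.42 normalised CPM (SD, n = 3; 0.07, 95% interval -0.45 to 0.59) and SCN3A at 31.8 ± 9.90 and 34.2 ± 3.59 (-0.11, 95% interval -0.66 to 0.44). SCN8A, the channel of the axon initial segment, varied widely between libraries, with 15.8, 24.1 and 8.42 with SGC707 and 29.9, 9.09 and 32.8 with DMSO (-0.57, SE 0.52, edgeR adjusted p = 0.676; -0.27 without SGC707 C). Of the 8 tested pore genes of this family 4 were positive and 4 negative.

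Calcium channel genes had 3 positive and 11 negative log2 fold changes among 14 tested, with a median of -0.29. All 4 tested pores were negative: CACNA1C had 14.0, 12.8 and 14.2 normalised CPM with SGC707 and 15.8, 20.7 and 15.4 with DMSO, groups that did not overlap (-0.34, SE 0.20, edgeR adjusted p = 0.505), while CACNA1B (-0.27), CACNA1G (-0.21, or 0.17 without SGC707 C) and CACNA1D (-0.09) overlapped. CACNA2D1 had 98.3, 96.7 and 150 normalised CPM in SGC707 A, B and C, against 89.7, 81.4 and 98.6 in DMSO A, B and C. SGC707 C was far above the rest and the other values lay close together (0.36, SE 0.20, edgeR adjusted p = 0.505; 0.11 without SGC707 C).

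Of the cytoplasmic calcium channel beta subunits, CACNB2 had 4.29, 4.28 and 4.13 normalised CPM with SGC707 and 5.91, 7.53 and 5.40 with DMSO, without overlap (-0.57, SE 0.24, edgeR adjusted p = 0.386). CACNB1, CACNB3 and CACNB4 had log2 fold changes of -0.44, -0.01 and 0.51, and their groups overlapped. Without SGC707 C that of CACNB1 was -0.20 and that of CACNB3 0.27, and without DMSO A that of CACNB4 was 0.09. Among gamma subunits and related regulators, CACNG2, or stargazin, had 5.26, 5.72 and 6.08 normalised CPM with SGC707 and 11.8, 11.4 and 6.12 with DMSO. DMSO A and B were high and DMSO C lay almost at the SGC707 values, so that the separation rests on a narrow margin (-0.78, SE 0.29, edgeR adjusted p = 0.328). CACNG4 stood at 211 ± 36.7 and 262 ± 24.5 normalised CPM (SD, n = 3; -0.32, edgeR adjusted p = 0.486), CACNG7 at 41.7 ± 18.6 and 64.2 ± 16.7 (-0.62, edgeR adjusted p = 0.514; -0.30 without SGC707 C and -0.88 without SGC707 A), and CACNG8 at 24.4 ± 2.93 and 22.5 ± 1.49 (0.11, 95% interval -0.29 to 0.51).

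The 3 tested HCN genes had negative log2 fold changes. HCN2 had 14.5, 11.4 and 4.99 normalised CPM with SGC707 and 18.2, 14.7 and 12.4 with DMSO (-0.54, SE 0.37, edgeR adjusted p = 0.579; -0.22 without SGC707 C), HCN4 a log2 fold change of -0.49 and HCN3 one of -0.09, or -0.21 and 0.05 without SGC707 C. Exons of PKLR on the opposite strand overlap 13.5% of the exon bases of HCN3.

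**Figure D3:**
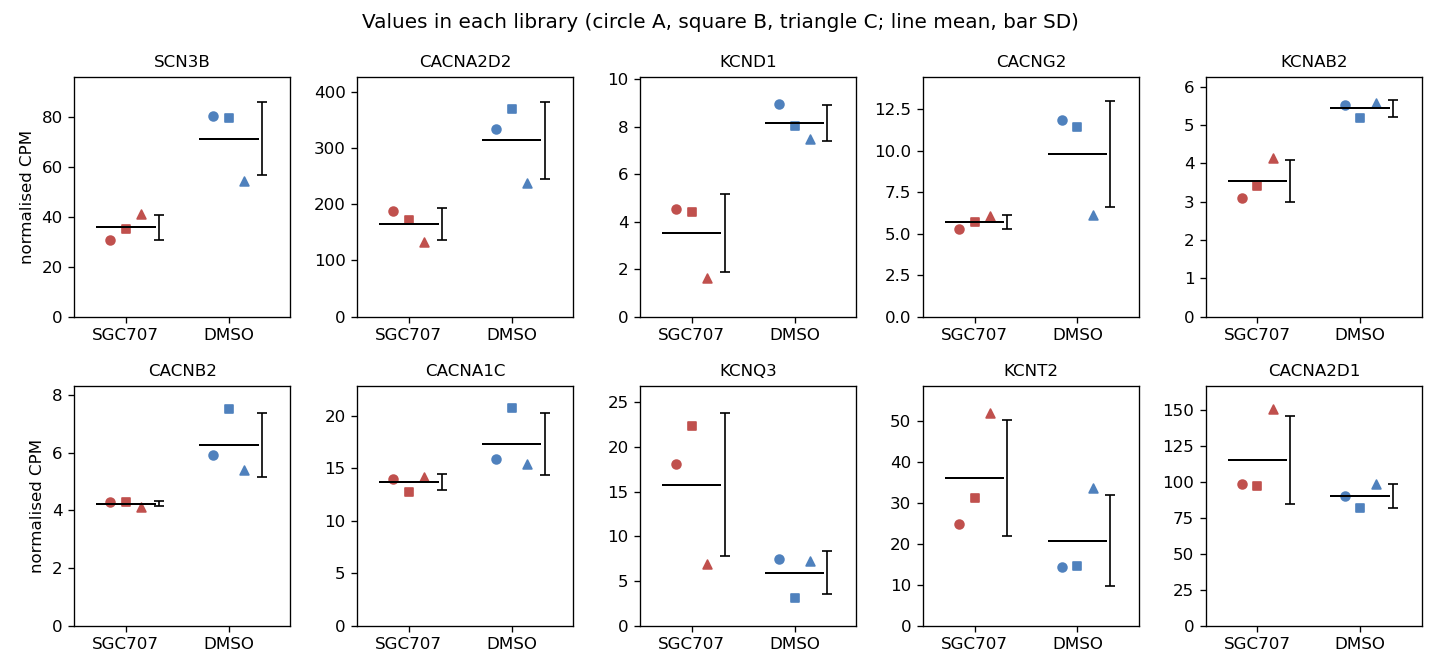
Normalised CPM in each SGC707 and DMSO library for 10 channel genes, with the mean (line) and SD (bar, n = 3) of each group. In the first 7 panels every SGC707 library lies below every DMSO library; in KCNQ3, KCNT2 and CACNA2D1 the groups overlap, and replicate C departs from A and B in the SGC707 group of KCNQ3 and in both groups of KCNT2.

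Across the channel genes, the values of SGC707 C tended to be lower where the GC content of the transcript was higher. Of the 17 tested members with a GC content of at least 60%, SGC707 C was the lowest of the 6 libraries in 15 and the highest in 0. Of the 43 with less, it was the lowest in 10 and the highest in 16. KCNH2 (66.8% GC) was lower in SGC707 C than in the mean of SGC707 A and B by a log2 difference of -1.12, HCN2 (70.8%) by -1.30, CACNG7 (61.9%) by -1.32, KCNT1 (60.6%) by -0.69, KCNK3 (57.3%) by -1.17, CACNB3 (60.3%) by -1.08, CACNA1G (60.5%) by -1.53 and CACNB1 (60.1%) by -0.90, while KCNT2, the tested member with the lowest GC content (34.7%), was higher by 0.88. Some members went the other way: KCNQ3 (45.4%) was lower by -1.49 and SCN8A (47.0%) by -1.20, and KCNAB2 (61.1%) was higher by 0.31. The part of the GC trend in the difference between the groups was not tested. After the correction for GC content and length, 39 of the 60 were negative, SCN3B (-0.99) and KCND1 (-1.17) had values close to the uncorrected ones, CACNA2D2 stood at -0.82 and KCNH2 at -0.14; 0 members passed, beside 0.476% of all tested genes, with edgeR adjusted p of 0.0552 for SCN3B and 0.0649 for KCND1.

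**Figure D4:**
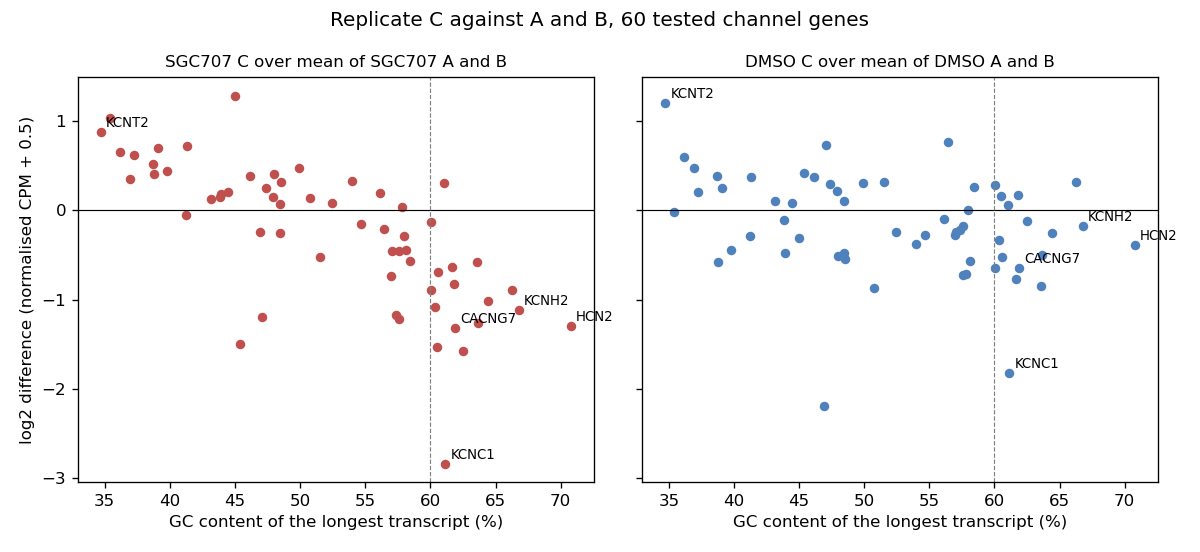
Log2 difference of replicate C from the mean of A and B, in SGC707 (left) and DMSO (right) libraries, against the GC content of the longest transcript for the 60 tested channel genes; the dashed line marks 60%. In SGC707 C most GC-rich members lie below 0 and most GC-poor ones above it, KCNH2 at -1.12 and KCNT2 at 0.88.

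Ratios between subunits within one library do not depend on the scaling between libraries, and 3 are given, of 4 computed, all chosen after the values were seen. The ratio of CACNA2D2 to CACNA2D1, in counts per kilobase, was 2.64, 2.47 and 1.21 in SGC707 A, B and C, against 5.15, 6.26 and 3.32 in DMSO A, B and C. That of SCN3B to the sum of the SCN pore genes was 0.391, 0.406 and 0.391 with SGC707, against 0.935, 0.944 and 0.574 with DMSO. Each of these ratios was lower in every SGC707 library than in every DMSO library, with a two-sided exact permutation p of 0.1, the smallest that 3 against 3 allows (0.133 adjusted over the 4 ratios computed). The groups of SCN3B and CACNA2D2 were already seen not to overlap when the ratios were chosen. These p-values are therefore descriptive, and the adjustment does not cover pairs that were not chosen. The ratio of KCNT1 to KCNT2 was 1.37, 0.955 and 0.376 with SGC707 and 2.69, 2.43 and 0.758 with DMSO, and the groups overlapped (exact permutation p = 0.3); its log2 difference was -1.11 with all libraries, -0.58 without SGC707 C and -1.70 without DMSO C, where the groups no longer overlapped. CACNA2D2 is richer in GC than CACNA2D1 (58.1% against 37.2%). After the correction for GC content and length the log2 difference was -1.14 for CACNA2D2 to CACNA2D1 (-1.25 before) and -1.01 for SCN3B to the pore genes (-1.01 before).

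**Figure D5:**
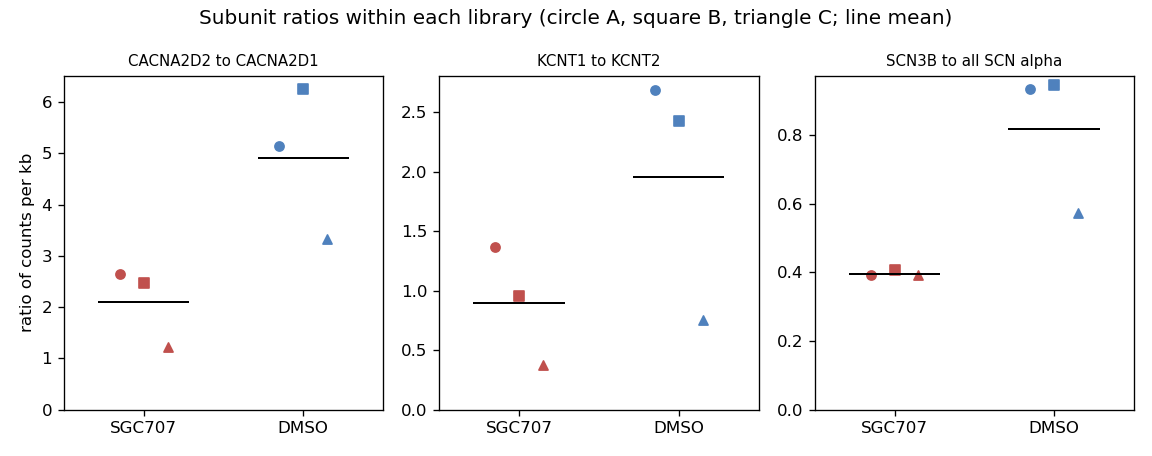
Ratio of counts per kilobase between channel subunits within each SGC707 and DMSO library (line: mean, n = 3). The ratios of CACNA2D2 to CACNA2D1 and of SCN3B to the summed SCN pore genes are lower in all SGC707 than in all DMSO libraries, and those of KCNT1 to KCNT2 overlap.

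Partners, regulators and other ion transport genes were counted for comparison, from a list picked by role. Of 63 measured, 49 were tested and 0 passed in either direction; 20 had positive and 29 negative log2 fold changes (median -0.08), and at an unadjusted p under 0.05 there were 0 positive and 9 negative (9 of 49, beside 7.13% of all tested genes). The endosomal chloride transporter gene CLCN5 had 5.92, 3.90 and 5.14 normalised CPM in SGC707 A, B and C, against 34.0, 38.5 and 8.55 in DMSO A, B and C, with DMSO C near the SGC707 values (-2.44, SE 0.52, edgeR adjusted p = 0.190). The lysosomal chloride transporter gene CLCN6 (-0.51), the ankyrin gene ANK2 (-0.59), which anchors channels to the membrane skeleton, and FAM155B (-0.82), a relative of an auxiliary subunit of the sodium leak channel NALCN, had edgeR adjusted p from 0.243 to 0.266. REST, the repressor of neuronal genes, stood at -0.30 (edgeR adjusted p = 0.681).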

How the data were processed

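Transcripts of SH-SY5Y cells were counted in 3 SGC707 and 3 DMSO libraries, with groups taken from the labelled treatment. Per the labels' protocols, mRNA was isolated from DNase-treated total RNA and read from both ends. The authors deposited 1 table of raw, whole-number counts of reads for each gene symbol, with no scaling between libraries. HISAT2, StringTie and GRCh38 are named per the submitters' processing notes; not given in the sources used here: versions, annotation, strand setting and treatment of shared reads.

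The test was edgeR 4.0.16 (R 4.3.3) over the whole table: filterByExpr, TMM scaling, glmQLFit (robust) and glmQLFTest, with no covariate, and Benjamini-Hochberg adjustment over the 12196 genes tested (threshold 0.05). Normalised CPM use the TMM factors. Standard errors are the log2 fold change over the square root of F. Transcript lengths, GC contents and coordinates came from GENCODE on GRCh38, with 19294 of 19610 symbols matched directly and 295 by synonym, and promoters from RefSeq (GRCh38.p14). The correction for GC content and length used lowess curves (span 0.3) as offsets. Libraries of 1 group differed beyond sampling noise in every pair (chi-square per degree of freedom at least 12.4).

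Genes were named by a rule: of the members with a mean of 20 or more counts, the 3 with the highest level in each role and the 12 with the smallest p, and 4 genes of the comparison list. Others are named as low, absent or overlapping genes or to complete a family, after their values were seen; some members and markers are not reported here. The members, lists and this rule were chosen with earlier results of these data known. Alternatives were RLE factors, library totals, no filter, a mean count of at least 20, DESeq2 1.42.0, limma-voom (limma 3.58.1), the replicate letter as a block, a fit without mitochondrially encoded genes, the GC and length correction, each library left out, and a threshold of 0.01. On counts simulated from these libraries' means and sizes, over 12073 genes, edgeR found 33.3% of 99 2-fold changes and 94.9% of 98 4-fold changes. False calls numbered 6. In the measured data only 3 of 12196 tested genes passed, so the adjusted threshold was harder to meet and the shares found may be lower. Intervals and floors cover counting or fitted error only.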

Additional observations from a re-analysis of the deposited data

How the results depend on the processing

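Among the channel genes, 0 passed in either direction with RLE factors, no filter, the stricter filter, limma-voom, the fit without mitochondrially encoded genes, the GC and length correction and a threshold of 0.01. DESeq2 called 0 higher and 3 lower (SCN3B and CACNA2D2 among them) of 105 with a p-value, some of which had no adjusted p. Library totals alone called 5 higher (CACNA2D1, KCNC4, KCNJ14, KCNQ3 and SCN2A) and moved the channel median to 0.54. Leaving out 1 library gave 0 to 1 higher and 0 to 3 lower; the calls came without SGC707 C. For all genes, higher and lower counts were 2574 and 31 with library totals, 1 and 5 with no filter, 47 and 241 with DESeq2, 0 and 2 with limma-voom, 7 and 51 after the correction, 0 and 0 at a threshold of 0.01, and 0 to 462 and 0 to 685 with 1 library left out, the highest without SGC707 C. Same-letter libraries had correlations of their deviations of 0.08, -0.02 and 0.10 for A, B and C, and different-letter libraries had -0.11 to 0.10. These values do not settle whether libraries of the same letter share a culture or day. The replicate block called 0 channel genes, and 0 higher and 0 lower of all genes.

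With library totals, where the median of all genes was 0.69, signs turned for 32 of the 60 tested channel genes; among the genes named by the rule, comparison genes included, signs turned for KCNH2 (0.42), KCNAB3 (0.44), KCNAB2 (0.026), KCNIP2 (0.58), KCNT1 (0.48), KCNN1 (0.13), KCNK3 (0.56), SCN3A (0.51), CACNA1B (0.41), CACNA1C (0.35), CACNA1G (0.52), CACNB1 (0.30), CACNB2 (0.13), CACNB3 (0.71), CACNG4 (0.39), CACNG7 (0.13), HCN2 (0.20), HCN3 (0.64), HCN4 (0.20), CLCN6 (0.17) and ANK2 (0.089), and among others given above KCNC1 (0.69), KCNQ5 (0.36), KCNMA1 (0.63), SCN8A (0.08) and CACNA1D (0.52). Less that median of all genes, the values with library totals were -0.27 for KCNH2, -0.67 for KCNAB2, -0.56 for CACNB2 and -0.50 for HCN2. Those of CACNB3 (0.02) and KCNC1 (0.0008) lay just above 0. KCNIP2 turned to 0.029 with limma-voom and 0.018 with the replicate block, where CACNA1D turned to 0.05 and KCNMB3 to -0.06 as well, and after the GC and length correction KCNK1 turned to -0.035, CACNB3 to 0.014 and KCNMB3 to -0.04. With 1 library left out the ranges of 22 of the 60 crossed 0, and those of another 23 moved by over 1.5 times. Ranges that crossed 0 included -0.32 to 0.34 for KCNIP2, -0.45 to 0.12 for KCNK3, -0.069 to 0.18 for KCNK1, -0.39 to 0.058 for SCN3A, -0.13 to 0.21 for SCN9A, -0.69 to 0.17 for CACNA1G, -0.27 to 0.27 for CACNB3, -0.38 to 0.046 for HCN3, -0.083 to 0.15 for KCNJ8 and -0.023 to 0.57 for KCNJ3, and, outside the rule, -0.99 to 0.08 for KCNQ5, -0.72 to 0.37 for KCNC1, -0.21 to 0.14 for KCNMA1, -0.44 to 0.30 for KCNMB3 and -0.50 to 0.34 for CACNA1D. The cause was not tested. None of the channel genes named here as turning sign or crossing 0 passed in any alternative. With 33.3% of 2-fold changes recovered in simulation, a change of that size in a channel gene can be missed.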
